A study of Mus musculus with 2 samples.

Results

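The 9 genes described here encode the insulin-like growth factors (IGFs), their receptor and the IGF-binding proteins: the ligands Igf1 and Igf2, the receptor Igf1r, and the binding-protein genes Igfbp2, Igfbp3, Igfbp4, Igfbp5, Igfbp6 and Igfbp7. They were taken by symbol from the 31054 genes of the deposited matrices, and all 9 were listed there. IGF-I and IGF-II are secreted growth factors that act through the type 1 IGF receptor, a tyrosine kinase that signals through the IRS, PI3K-AKT and MAPK pathways. Most of the IGF outside cells is held by binding proteins, which prolong its life and limit or focus its access to the receptor, while IGFBP7 is a relative that binds IGF with low affinity. In adipose tissue, Igf1 made locally acts on preadipocyte growth and differentiation, and several binding proteins, IGFBP3, IGFBP5 and IGFBP7 among them, are known as factors that senescent cells can secrete.

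The cells came from the stromal vascular fraction of gonadal white adipose tissue (gWAT) of 18-month-old male p16-CreERT2/R26-LSL-tdTomato mice given tamoxifen. In this model the p16 promoter drives a tamoxifen-inducible Cre that switches on a tdTomato reporter, so that a cell is marked when the promoter was active during the treatment, and both libraries carried both alleles. CD31- CD45- cells were sorted into a tdTomato-positive (Tom+) and a tdTomato-negative (Tom-) library, 1 of each, for droplet 3′ single-cell RNA sequencing. How many mice were pooled in a library is not given in the sources used here. With 1 library per sorted group there was no replicate error, so no test was made: values are unique molecular identifiers (UMIs) of a gene per 1000000 UMIs summed over a class of cells (CPM), and the 95% intervals after them cover counting error only. Levels are compared between classes, clusters and libraries for the same gene and not between genes.

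Cells with over 1000 and under 7000 detected genes and under 8% mitochondrial UMIs were kept, 3524 of 5566 barcodes in Tom+ and 6717 of 11838 in Tom-. Mesothelial cells, which line the surface of visceral fat, were those with at least 10 UMIs over Msln, Upk3b, Krt19, Lrrn4 and Upk1b, and stromal cells were those with under 5. This gave 3263 stromal and 250 mesothelial cells in Tom+, and 4800 stromal and 1887 mesothelial cells in Tom-. Median UMIs per cell were 14235 and 11270 in stromal and 18602 and 14753 in mesothelial cells of Tom+ and Tom-. The labels were checked against markers outside the rule. In mesothelial cells 7 further mesothelial markers summed to 2406 and 2541 CPM, against 176 and 279 CPM in stromal cells, most of the latter Wt1. In stromal cells 11 fibroblast and progenitor markers summed to 48883 and 54662 CPM, against 16008 and 18342 CPM in mesothelial cells. Of these 11, Cd34 was higher in mesothelial cells (435 and 417 against 294 and 292 CPM). The sum of 6 interstitial progenitor markers was also higher in mesothelial cells (1252 and 1195 against 788 and 945 CPM). Of these 6, Pi16 (22.2 and 16.5 against 139 and 237 CPM) and Cd55 (131 and 114 against 187 and 214 CPM) were lower. The sum of 4 markers of adipose-regulatory cells was higher there too (1640 and 1746 against 496 and 756 CPM). Of these 4, Gdf10 was lower (6.39 and 21.0 against 193 and 272 CPM). Of the 250 and 1887 mesothelial cells, 240 and 1690 held 10 or more UMIs over the stromal genes Pdgfra, Col1a1, Col3a1 and Lum.

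The stromal class was not free of other cells. Immune markers, 8 in all, summed to 47249 CPM in Tom+ and 11634 CPM in Tom- stromal cells. Most of this was Igkc (45478 and 10759 CPM), found in 99.5% and 82.0% of the cells, while Ptprc was 7.57 and 3.44 CPM. The 3 clusters led by immunoglobulin, mast-cell and T-cell genes (clusters 4, 5 and 6) held 196 Tom+ and 99 Tom- cells. These were 6.01% and 2.06% of the cells of the class and held 12.0% and 4.08% of its UMIs. Markers of mature adipocytes (3.74 and 5.10 CPM) and of endothelial cells (7.89 and 8.59 CPM) were near 0 in stromal cells. The reporter's own RNA was sparse: 5 or more tdTomato UMIs were found in 10.1% of Tom+ stromal cells (0 of 4800 in Tom-) and in 57.6% of Tom+ mesothelial cells (0.053% in Tom-), and 1 or more in 28.6% of Tom+ and 13.1% of Tom- stromal cells. Cdkn2a, the locus of p16, stood at 4.66 and 5.79 CPM in Tom+ and Tom- stromal cells. The libraries shared 2224 barcodes, 9 of which passed the filters in both, and 404 Tom+ stromal cells (12.4%), 100 Tom+ mesothelial cells (40%), 75 Tom- stromal cells (1.56%) and 207 Tom- mesothelial cells (11.0%) carried a barcode also listed in the other library. Ratios without these cells are given below.

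The promoters of 4 members are shown because these genes made the clearest contrasts between the classes: Igfbp2, Igfbp5 and Igfbp6 were higher in mesothelial cells, and Igf1 in stromal cells. They are the RefSeq promoters of GRCm38.p6, from 250 bases before to 50 bases after the start, and all 9 members had at least 1 among the 32851 in the table. Capitals mark matches on either strand to GGGCGG (found in 35.7% of all promoters), CCAAT (37.4%) and TATAAA (13.6%). The first window lies at chr1:72824230-72824529 (plus strand), the second at chr1:72874816-72875115 (minus strand), the third at chr15:102143936-102144235 (plus strand) and the last at chr10:87860861-87861160 (plus strand). Another Igfbp2 promoter, at chr1:72825137-72825436 (plus strand, 57.3% GC), held none of these motifs and is not shown.
Igfbp2 promoter: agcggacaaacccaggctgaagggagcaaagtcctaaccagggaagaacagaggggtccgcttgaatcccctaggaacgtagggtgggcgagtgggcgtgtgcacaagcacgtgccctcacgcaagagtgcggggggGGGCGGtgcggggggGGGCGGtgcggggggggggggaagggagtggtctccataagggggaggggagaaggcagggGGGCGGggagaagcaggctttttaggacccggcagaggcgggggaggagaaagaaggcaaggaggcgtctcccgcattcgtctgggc
Igfbp5 promoter: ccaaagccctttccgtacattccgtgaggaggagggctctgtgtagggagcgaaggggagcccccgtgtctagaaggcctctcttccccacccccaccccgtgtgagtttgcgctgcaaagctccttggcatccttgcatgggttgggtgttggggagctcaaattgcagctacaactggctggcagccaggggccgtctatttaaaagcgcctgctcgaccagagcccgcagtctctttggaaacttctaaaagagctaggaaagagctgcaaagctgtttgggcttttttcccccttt
Igfbp6 promoter: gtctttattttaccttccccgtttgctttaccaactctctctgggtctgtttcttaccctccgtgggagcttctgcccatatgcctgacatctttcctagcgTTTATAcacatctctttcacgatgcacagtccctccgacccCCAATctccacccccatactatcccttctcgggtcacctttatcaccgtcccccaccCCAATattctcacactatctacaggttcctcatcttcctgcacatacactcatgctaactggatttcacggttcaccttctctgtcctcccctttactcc
Igf1 promoter: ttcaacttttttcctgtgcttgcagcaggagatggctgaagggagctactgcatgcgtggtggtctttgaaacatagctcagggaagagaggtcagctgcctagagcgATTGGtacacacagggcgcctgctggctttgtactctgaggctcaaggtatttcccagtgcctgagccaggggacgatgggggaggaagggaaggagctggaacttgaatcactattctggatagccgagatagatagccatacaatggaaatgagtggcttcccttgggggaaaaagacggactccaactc
The Igfbp2 window had 67% GC and 3 GGGCGG matches, that of Igfbp5 had 56.3% GC and none of the 3 motifs, that of Igfbp6 had 49.7% GC with 2 CCAAT and 1 TATAAA match, and that of Igf1 had 52.3% GC with 1 CCAAT match, beside a median of 52.7% GC over all promoters. These motifs were thus not shared by the 3 genes that were higher in mesothelial cells. A match is a run of letters and not a shown site, and a window without one says nothing of the factor. Igfbp2 (chr1:72824503-72852474, plus strand) and Igfbp5 (chr1:72857932-72874884, minus strand) are neighbours that end 5457 bases apart in GENCODE M21. The other members lie on chromosome 10 (Igf1, chr10:87858265-87937042), 7 (Igf1r, chr7:67952827-68233668, and Igf2, chr7:142650766-142666816), 11 (Igfbp3, chr11:7206086-7213923, and Igfbp4, chr11:99041244-99054392), 15 (Igfbp6, chr15:102144362-102149511) and 5 (Igfbp7, chr5:77349240-77408041).

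The study also measured Igfbp5 by qPCR, and its primers are shown here because they fix which part of the gene that assay read.
Igfbp5 forward primer: agacaggaatccgaacaaggc
Igfbp5 reverse primer: gtagaatcctttgcggtcaca
Both primers matched 2 Igfbp5 transcripts of GENCODE M21 exactly, with a product of 126 bases in each. The forward primer crossed the junction of exons 2 and 3, and the reverse primer lay in exon 3 at chr1:72863155-72863175. The product lay at positions 1292 to 1417 of the longer transcript, which has 6006 bases, while the 3′ libraries count transcripts near their 3′ end.

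Igfbp2, Igfbp5, Igfbp6 and Igf1 differed more between the classes than between the sorted libraries. The spread over stromal clusters is given below. Mesothelial cells had far more Igfbp2, Igfbp5 and Igfbp6 than stromal cells in both libraries and less Igf1, while Igf1r and Igfbp7 were within 1.5-fold. At a cut of 1.5-fold, 3 of the 8 members compared were higher and 2 lower in mesothelial than in stromal cells of Tom-, against 21.0% higher and 13.9% lower among all 10019 genes compared. In Tom+ 4 of 8 were higher and 2 lower, against 22.6% and 16.2% of 10240 genes. The median log2 ratio of the members was 0.22 in Tom- (0.14 over all genes) and 0.44 in Tom+ (0.11 over all genes), with members far to either side.

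Of the ligands, Igf1 was mainly stromal. Igf1 stood at 456 CPM (450 to 462) in Tom+ beside 643 CPM (636 to 650) in Tom- stromal cells, and mesothelial cells had 90.2 CPM (82.3 to 98.6) in Tom+ beside 93.7 CPM (90.4 to 97.1) in Tom-. The stromal level was 5.06-fold higher in Tom+ and 6.86-fold higher in Tom-. Part of the mesothelial Igf1 cannot be told apart from stromal RNA in the same droplets: at the stromal ratio of Igf1 to Lum, the Lum of mesothelial cells would carry 17.7 and 56.8 CPM of Igf1, and at the ratio to Pdgfra 55.6 and 117 CPM. In the 10 Tom+ and 197 Tom- mesothelial cells with under 10 UMIs of the 4 stromal genes, the log2 ratio of Igf1 was wider, at -3.31 and -4.18 in place of -2.34 and -2.78. The Tom+ value rests on 10 cells, and no interval was made for these ratios. Igf2, the fetal growth factor, was close to absent, with 1 UMI in Tom+ stromal cells, 0 in Tom- stromal cells, 0 in Tom+ mesothelial cells and 1 in Tom- mesothelial cells. With the limit of a count of 0 taken as 3 UMIs, it allows up to 0.564 CPM in Tom+ mesothelial and 0.0518 CPM in Tom- stromal cells, and the exact 95% intervals reach 0.693 and 0.0637 CPM.

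Igf1r, the receptor, stood at 107 CPM (105 to 110) and 75.3 CPM (73.1 to 77.6) in Tom+ and Tom- stromal cells and at 80.4 CPM (73.0 to 88.4) and 81.7 CPM (78.7 to 84.9) in mesothelial cells. The mesothelial to stromal log2 ratio was -0.42 in Tom+ and 0.12 in Tom-, both within 1.5-fold. The first was -0.72, past the cut, without shared barcodes, and the second turned to -0.020 under median-of-ratios scaling. Thinned to 7563 UMIs per cell, 39.7% and 41.6% of mesothelial cells and 53.1% and 40.4% of stromal cells held an Igf1r UMI in Tom+ and Tom-. Unthinned, the shares were 72.4% and 64.7% of mesothelial and 71.3% and 51.9% of stromal cells.

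Among the binding proteins, Igfbp2 had the largest ratio of summed CPM between the classes, though most mesothelial cells held no UMI of it. It had 493 UMIs (92.6 CPM, 84.6 to 101) in the 250 Tom+ and 3090 UMIs (95.5 CPM, 92.2 to 98.9) in the 1887 Tom- mesothelial cells, and 8 and 57 UMIs in stromal cells (0.157 and 0.985 CPM). The log2 ratio was 6.60 (6.22 to 7.004) in Tom-, 97.0-fold. A mesothelial source for the few stromal UMIs could not be told apart from stromal expression: at the mesothelial ratio of Igfbp2 to the 5 class markers, the markers seen in stromal cells would carry 0.127 and 0.545 CPM. The thinned share of cells with an Igfbp2 UMI was 24.3% and 24.4% in mesothelial and 0.134% and 0.578% in stromal cells, and unthinned 33.6% and 35.3% against 0.215% and 0.875%. Within mesothelial cells it was uneven, with a median of 0 UMIs, a highest cell of 63 in Tom+ and 49 in Tom-, and 77.5% and 74.8% of its UMIs in the top 10% of cells. In the mesothelial cells with little stromal RNA described above, the log2 ratio was smaller, 7.46 in Tom+ and 4.62 in Tom- against 9.21 and 6.60 over all of them. The Tom+ value again rests on 10 cells, with no interval made.

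Igfbp5, which binds IGF and also matrix, was high in most mesothelial cells and absent from most stromal cells. It stood at 2948 CPM (2902 to 2994) in Tom+ beside 2066 CPM (2050 to 2081) in Tom- mesothelial cells, against 143 CPM (140 to 146) and 107 CPM (104 to 110) in stromal cells. The fold was 20.6 in Tom+ and 19.3 in Tom-, so the class difference was alike in both libraries. A mesothelial cell held a median of 33.5 and 14 Igfbp5 UMIs and at most 664 and 509, while the stromal median was 0. After thinning, 89.5% and 85.7% of mesothelial cells and 24.1% and 15.3% of stromal cells held an Igfbp5 UMI, and unthinned 92.8% and 89.9% against 30.4% and 18.98%. Carried mesothelial RNA at the ratio to the class markers would give 4.04 and 11.8 CPM of Igfbp5 in stromal cells. The levels measured were 143 and 107 CPM. Stromal cells were chosen for under 5 UMIs of these same markers, so the estimate may be low. The carried part was not tested. Barcodes with no more than 1000 genes, which were left out, had 514 and 454 CPM of Igfbp5, and the part of their kind of RNA in stromal cells was not tested.

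Igfbp6, which prefers IGF-II, was, like Igfbp7, seen in every mesothelial cell, thinned or not. Its level was 4115 CPM (4060 to 4170) in Tom+ beside 4036 CPM (4014 to 4058) in Tom- mesothelial cells, and 624 CPM (617 to 631) and 878 CPM (871 to 886) in stromal cells, 6.59-fold and 4.60-fold higher in mesothelial cells. Igfbp4, a binding protein that holds IGF-I back from the receptor, was 1014 and 973 CPM in mesothelial and 479 and 777 CPM in stromal cells, 2.12-fold higher in Tom+ and 1.25-fold in Tom-. The gap between these folds came from the stromal side, where Tom+ cells had less Igfbp4. Igfbp3, the main carrier of IGF in serum, was lower in mesothelial cells, 31.4 against 50.0 CPM in Tom+ and 15.8 against 28.1 CPM in Tom-, or 1.59-fold and 1.78-fold. Without shared barcodes the Tom+ log2 ratio of Igfbp3 was -0.28 in place of -0.67 and that of Igf1r -0.72 in place of -0.42, while Igfbp2 (8.55), Igfbp5 (3.94) and Igfbp6 (2.45) stayed far above the cut. Igfbp7 was 1525 against 1745 CPM in Tom+ and 1920 against 2725 CPM in Tom-, a log2 ratio of -0.19 and -0.50.

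**Figure D1:**
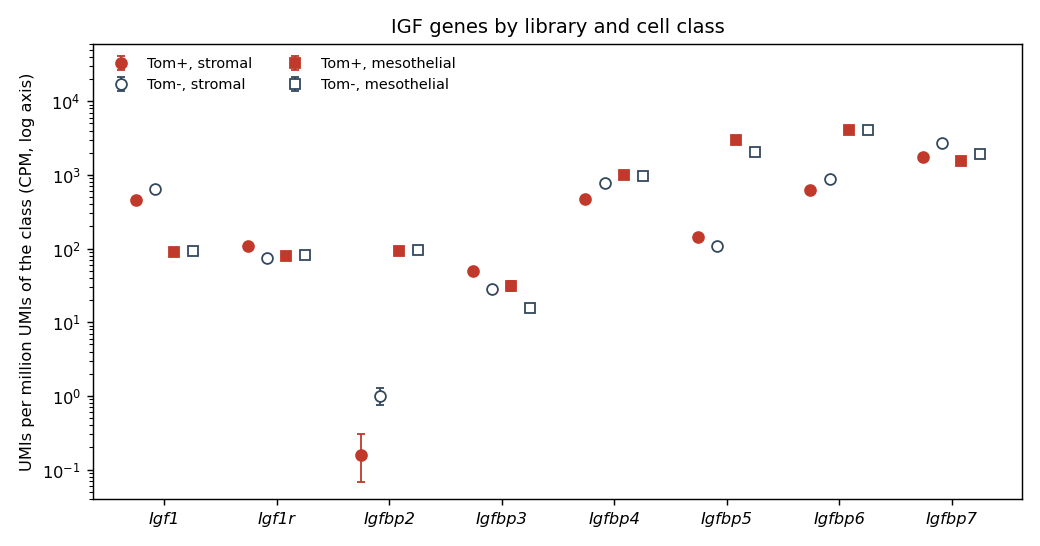
Level of 8 of the 9 genes, Igf2 being left out (CPM of summed UMIs, log axis) in stromal and mesothelial cells of the Tom+ and Tom- libraries; points are 1 library each and bars are exact 95% Poisson intervals, which cover counting error only. Igfbp2, Igfbp5 and Igfbp6 sit higher in mesothelial cells of both libraries and Igf1 higher in stromal cells, with Igfbp2 near the bottom of the axis in stromal cells (0.157 and 0.985 CPM).

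Between the sorted libraries, stromal cells of Tom+ had more Igfbp3 and less Igfbp4 and Igfbp7 than those of Tom-. Of the 7 members compared in stromal cells, 1 was at least 1.5-fold higher and 2 at least 1.5-fold lower in Tom+, against 3.86% higher and 3.25% lower among all 9778 genes compared. Igfbp3 was 50.0 CPM (48.1 to 52.0) in Tom+ beside 28.1 CPM (26.8 to 29.5) in Tom-, 1.78-fold higher, with a log2 ratio of 0.83 (0.74 to 0.92). Igfbp4 was 479 against 777 CPM, 1.62-fold lower, with a log2 ratio of -0.70 (-0.72 to -0.68). Igfbp7 was 1745 against 2725 CPM, 1.56-fold lower, with a log2 ratio of -0.64 (-0.66 to -0.63). The other 4 lay short of the cut: Igf1r at 0.51 (0.45 to 0.57) and Igfbp5 at 0.42 (0.37 to 0.47) were higher in Tom+, and Igf1 at -0.49 (-0.52 to -0.47) and Igfbp6 at -0.49 (-0.51 to -0.47) were lower. Igfbp2, with 8 and 57 UMIs, and Igf2 were below the level compared. The median of the 7 was -0.49 against 0.071 over all genes. In the barcodes with no more than 1000 genes, Igfbp4 was 788 against 1438 CPM and Igfbp7 1382 against 1826 CPM, lower in Tom+ too. Igf1 (186 against 381 CPM), Igf1r (75.5 against 96.3 CPM) and Igfbp3 (129 against 199 CPM) were also lower in Tom+ there. Igfbp5 (514 against 454 CPM) and Igfbp6 (870 against 777 CPM) were higher. Igfbp3 was thus above both stromal levels in these barcodes, and their part in the stromal ratios was not tested.

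These counts shifted with the makeup of the class. Without clusters 4, 5 and 6, Igf1r (log2 ratio 0.59) joined Igfbp3 above the cut and Igfbp4 alone stayed below it, and with shared barcodes left out the calls were the same genes, Igfbp3 at 0.995, Igf1r at 0.62 and Igfbp4 at -0.64. With each cluster given equal weight, no member was 1.5-fold lower in Tom+ and Igf1 turned to 0.14. The ratio of Igfbp5 was 0.17 with the mitochondrial limit at 5% and 0.59 with cells thinned to 1 depth. The share of cells with a UMI at equal depth went the same way as the levels: 14.3% of Tom+ and 8.16% of Tom- stromal cells for Igfbp3 (18.1% and 10.3% unthinned), 77.9% and 92.9% for Igfbp4 (84.1% and 93.8%), 97.4% and 99.4% for Igfbp7 (97.5% and 99.1%), 58.2% and 68.9% for Igf1 (67.1% and 74.4%), and 88.0% and 94.2% for Igfbp6 (92.9% and 95.7%). Igfbp3 was held by few cells, with 88.2% of its Tom+ and 99.2% of its Tom- stromal UMIs in the top 10% of cells, and Igfbp7 by nearly all, with 26.5% and 25.2% there.

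In mesothelial cells only Igfbp3 crossed the cut between the libraries. Of 8 members compared, 1 was higher and 0 lower in Tom+, against 1.87% and 1.16% of 10014 genes. Igfbp3 was 31.4 CPM (26.8 to 36.5; 167 UMIs in 250 cells) in Tom+ beside 15.8 CPM (14.5 to 17.2; 511 UMIs in 1887 cells) in Tom-, 1.99-fold higher, with a log2 ratio of 0.99 (0.73 to 1.25). Igfbp5 came next, at 2948 against 2066 CPM, 1.43-fold higher, with a log2 ratio of 0.51 (0.49 to 0.54) that lay at the 97.2 percentile of all genes compared. Igfbp7 was lower in Tom+, 1525 against 1920 CPM, with a log2 ratio of -0.33 (-0.37 to -0.30). The other 5 differed by less than 0.06 on the log2 scale: Igf1 by -0.055, Igf1r by -0.024, Igfbp2 by -0.044, Igfbp4 by 0.059 and Igfbp6 by 0.028. Without shared barcodes the ratio was 1.56 for Igfbp3, 0.37 for Igfbp5, -0.31 for Igfbp7 and -0.50 for Igfbp2. Over the whole class, few cells held Igfbp3: the top 10% had 90.4% of its Tom+ and 93.2% of its Tom- UMIs. The highest Tom+ cell had 33 UMIs. After thinning, 11.3% (7.67 to 16.0) of Tom+ and 6.32% (5.24 to 7.55) of Tom- cells held an Igfbp3 UMI. Unthinned, the shares were 16.4% (12.0 to 21.6) and 11.9% (10.4 to 13.4), with overlapping intervals. Immune markers moved with the library here too: the same 8 summed to 845 CPM in Tom+ and 186 CPM in Tom- mesothelial cells with none at 0, Lyz2 being 275 and 10.8 CPM and the macrophage marker Adgre1 18.6 and 0.216 CPM, and their part in the result was not tested. In the 10 Tom+ mesothelial cells with little stromal RNA, Igfbp3 could not be compared at this depth.

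The direction of Igfbp3, Igfbp5 and Igfbp7 was thus the same in both classes, and Igfbp4, Igfbp6, Igf1 and Igf1r differed mainly in stromal cells. The mesothelial minus the stromal log2 ratio was 0.76 (0.71 to 0.80) for Igfbp4, 0.52 for Igfbp6, 0.44 for Igf1 and -0.53 for Igf1r. It was 0.095 for Igfbp5 and 0.16 (-0.11 to 0.43) for Igfbp3. For Igfbp7 it was 0.31 (0.28 to 0.35), since its ratio was -0.64 in stromal and -0.33 in mesothelial cells. These intervals again cover counting error, and whether the classes differ was not tested.

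**Figure D2:**
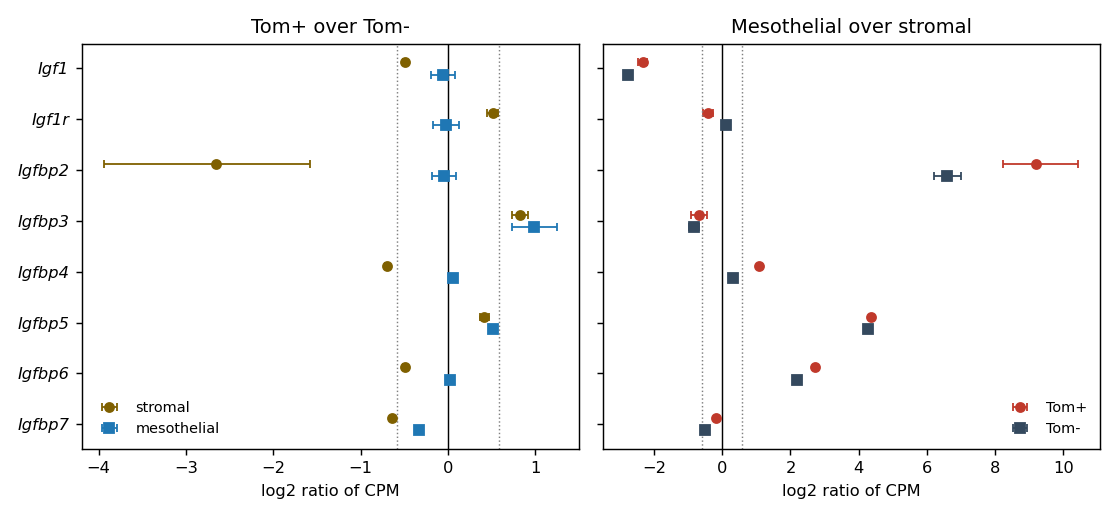
Log2 ratio of CPM for 8 genes, of Tom+ over Tom- in stromal and in mesothelial cells (left) and of mesothelial over stromal cells in each library (right); points are 1 library against 1 library or class against class, bars are exact 95% intervals for counting error, and dotted lines mark 1.5-fold either way. On the left Igfbp3 lies above the upper line in both classes, Igfbp4 and Igfbp7 lie below the lower line in stromal cells, and the stromal point of Igfbp2 rests on 8 and 57 UMIs; on the right Igfbp2, Igfbp5 and Igfbp6 lie above the line in both libraries.

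Stromal cells were clustered with the 9 members and the other IGF genes left out, which gave 11 clusters, 9 of them with at least 30 cells. Over those 9 clusters, 6 of the 7 members compared spanned at least 4-fold between the lowest and the highest cluster, against 34.7% of 9968 genes. The lowest was often cluster 4, led by immunoglobulin genes. In Tom+ alone the count was 5 of 7, against 34.3% of all genes, and in Tom- alone 4 of 7, against 32.0%. Igf1r fell short of 4-fold in each library (3.57-fold and 3.51-fold), and Igfbp3 in Tom- (2.94-fold). With the libraries pooled but without clusters 4, 5 and 6 the count was 2 of 7, against 12.5% of all genes: Igf1 with 8.73-fold and Igfbp5 with 22.1-fold. Igfbp7 (3.88-fold), Igfbp6 (3.76-fold), Igfbp4 (3.07-fold), Igfbp3 (2.69-fold) and Igf1r (1.64-fold) were more even over the 7 clusters left. The clusters were formed from genes that these may follow, so the spread is a description.

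Igf1 and Igfbp5 peaked in different stromal clusters. Igf1 was highest in cluster 9 (2060 cells, led by Vtn, Alkal2, Vwa1 and Agt), at 1133 CPM (1120 to 1147) over both libraries, followed by cluster 3 (led by Pi15, Pdlim3 and Eln) at 765 CPM and cluster 10 (led by Cpxm2, Mfap4 and Il6) at 665 CPM. Its lowest level was 130 CPM (124 to 136) in cluster 8 (951 cells, led by Pi16, Efhd1 and Sema3c). Igfbp5 was highest where Igf1 was lowest: 581 CPM (568 to 595) in cluster 8, 135 CPM in cluster 2 (led by Edn1, Chchd10 and Sox4), 109 CPM in cluster 1 (led by Gsc and Aspn) and 26.3 CPM (24.3 to 28.5) in cluster 10. At double the clustering resolution the Igfbp5 peak was narrower still: a cluster of 481 cells, led by Krtdap, Dact2, Efhd1, Sema3c and Pi16, had 1033 CPM of Igfbp5, 1998 CPM of Igfbp6 and 28.9 CPM of Igf1, and another of 544 cells, led by Sfrp4 and Nptx2, had 72.3 CPM of Igfbp5. A further cluster at that resolution, of 58 cells (3 of them Tom+) led by Wnt4 and Emcn, had the highest Igf1 and Igfbp3 of any, at 1681 CPM (1566 to 1802) and 324 CPM (274 to 379).

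Cluster 8 was also the peak of Igfbp6, at 1646 CPM (1624 to 1668) against 437 to 808 CPM in clusters 1, 2, 3, 9, 10 and 11, and shared the peak of Igfbp4 with cluster 10, both at 822 CPM. Igfbp7 was lowest there among those clusters (1161 CPM) and highest in cluster 11 (253 cells, led by Clu, Acta2 and Gatm) at 4507 CPM. Over both libraries, Igfbp3 was highest in clusters 2 and 3, at 57.2 CPM (54.0 to 60.5) and 54.9 CPM (49.7 to 60.5). These did not differ beyond counting error, and Igfbp3 was 22.8 CPM in cluster 8. In Tom+ alone it was 70.8 CPM in cluster 3 and 64.1 CPM in cluster 2. In Tom- alone cluster 9 had 32.9 CPM, cluster 2 had 30.8 CPM and cluster 3 had 16.2 CPM. The Igfbp3 peak thus depended on the library, and also on the resolution, since the Wnt4 and Emcn cluster described above lay far higher. Igf1r was 122 CPM in cluster 2 and 74.2 CPM in cluster 10. Cluster 8 held 12.8% of Tom- stromal cells and 79.3% of their Igfbp5 UMIs, and 10.4% of Tom+ stromal cells and 37.1% of their Igfbp5 UMIs. Cluster 9 held 33.7% of Tom- cells with 53.4% of their Igf1 UMIs, and 13.6% of Tom+ cells with 33.3%.

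**Figure D3:**
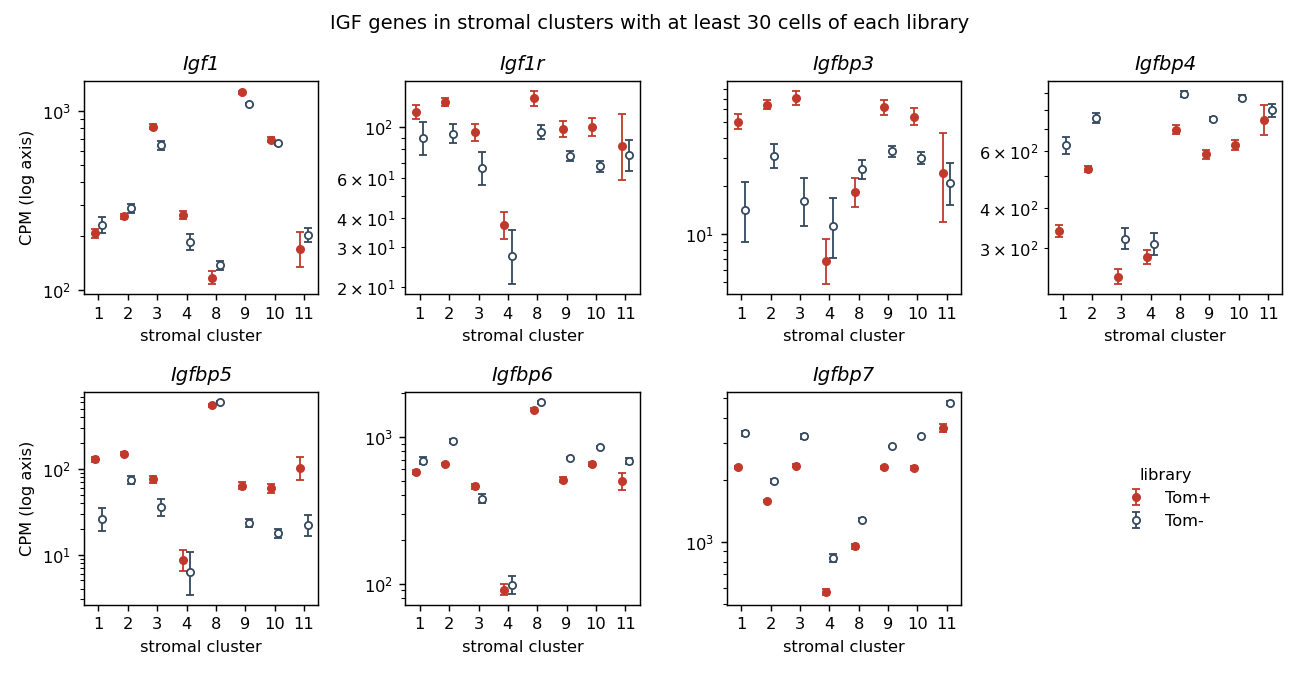
Level of Igf1, Igf1r, Igfbp3, Igfbp4, Igfbp5, Igfbp6 and Igfbp7 (CPM, log axes) in the 8 stromal clusters with at least 30 cells of each library; points are 1 library each, with exact 95% Poisson intervals for counting error. Igf1 peaks in cluster 9 and Igfbp5 in cluster 8, and Igfbp5 lies higher in Tom+ than in Tom- in every cluster shown but cluster 8.

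Compared within clusters, Igf1r was higher and Igfbp4 and Igfbp7 lower in Tom+ throughout, and Igfbp5 showed a wider gap than in the pooled class. There were 8 clusters with at least 30 cells of each library, cluster 4 and 7 others, and the counts below are over the 7. Igf1r was higher in Tom+ in 7 of these 7 (log2 ratio 0.14 to 0.58) and Igfbp4 and Igfbp7 lower in 7 of 7 (-0.87 to -0.099 and -0.55 to -0.33). In cluster 11, the counting-error intervals of Igf1r (0.14, -0.41 to 0.65) and Igfbp4 (-0.099, -0.27 to 0.068) covered both signs. Of 8483 genes compared in all 7 clusters, 16.2% were higher in each and 5.95% lower in each. Being higher in each, as Igf1r was, was thus common among all genes. Set against all genes of the same cluster, Igf1r lay over the 90th percentile in 4 of 7, Igfbp5 in 6 and Igfbp3 in 5, and Igfbp4 lay under the 10th in 5, Igfbp7 in 6 and Igfbp6 in 3. Igfbp6 was lower in 6 of 7, the exception being cluster 3 (461 against 379 CPM). Igf1 was higher in 3 and lower in 4, between -0.26 and 0.35, so its lower pooled level in Tom+ was not seen within each cluster. Igfbp3 was higher in 6 of 7, most of all in cluster 3 (70.8 against 16.2 CPM, 2.13) and cluster 1 (50.3 against 14.0 CPM, 1.84), and lower in cluster 8 (18.3 against 25.4 CPM, -0.48).

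Igfbp5 was higher in Tom+ in 6 of the 7 clusters. It was 129 against 26.3 CPM in cluster 1 (log2 ratio 2.30, 1.86 to 2.78), 151 against 74.9 CPM in cluster 2 (1.01, 0.85 to 1.18) and 75.7 against 35.6 CPM in cluster 3 (1.09, 0.73 to 1.46). It was 63.8 against 23.4 CPM in cluster 9 (1.44, 1.24 to 1.65), 59.3 against 17.7 CPM in cluster 10 (1.75, 1.51 to 1.98) and 102 against 22.1 CPM in cluster 11 (2.21, 1.61 to 2.82). The Tom+ value of cluster 11 rested on 47 UMIs in 8.57% of 35 cells, a smaller share than the 15.1% of 218 Tom- cells, so level and share of cells went opposite ways there. Cluster 8, where Igfbp5 is highest, was the exception, at 555 against 597 CPM (-0.11, -0.17 to -0.037). The median over the 7 was 1.44, against 0.42 for the pooled class. At the mesothelial ratio to the class markers, carried RNA would give 12.0 of the 23.4 CPM in cluster 9 and 10.5 of the 17.7 CPM in cluster 10 of Tom-, and 33.4 CPM against the 22.1 CPM measured in cluster 11 of Tom-. How much of the Tom- levels was carried RNA was not tested.

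In stromal cells the reporter RNA did not track Igfbp5. Thinned Tom+ stromal cells outside clusters 4, 5 and 6 had 153 CPM of Igfbp5 (147 to 159) at 0 tdTomato UMIs (2118 cells), 199 CPM (185 to 213) at 1 to 4 (544 cells) and 76.9 CPM (62.3 to 93.9) at 5 or more (165 cells), against 101 and 98.9 CPM in Tom- cells at 0 and at 1 to 4. The higher Igfbp5 of the Tom+ library thus lay in cells with few or no reporter UMIs. Within cluster 2 it was 140 CPM at 0 and 19.6 CPM (4 UMIs in 27 cells) at 5 or more, in cluster 9 68.8 and 8.62 CPM (3 UMIs in 46 cells), and in cluster 10 72.7 and 7.35 CPM (2 UMIs in 36 cells). In cluster 8 it was 480 CPM at 0 and 529 CPM (80 UMIs in 20 cells) at 5 or more.

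Igfbp3 and Igf1 went the other way. Igfbp3 was 60.3 CPM at 0 and at 1 to 4 tdTomato UMIs and 97.0 CPM (80.5 to 116) at 5 or more, against 29.9 CPM in Tom- cells at 0, so it was above the Tom- level at each reporter count. Within cluster 9 it was 63.0 and 129 CPM at 0 and at 5 or more against 33.3 CPM in Tom-, and within cluster 10 it was 51.8 and 95.5 CPM against 29.2 CPM. Igf1 was 491 CPM at 0, 482 CPM at 1 to 4 and 757 CPM (710 to 807) at 5 or more, against 677 CPM in Tom-. Igfbp4 (512, 501 and 654 CPM against 809 in Tom-), Igfbp6 (704, 678 and 801 CPM against 911) and Igfbp7 (1845, 1836 and 2379 CPM against 2801) each lay closer to the Tom- level in cells with 5 or more reporter UMIs. The strata differ in cluster makeup, since 5 or more UMIs were found in 2.46% to 2.85% of Tom+ cells of clusters 1, 2 and 3, 5.90% of cluster 8, 11.0% of cluster 9 and 11.8% of cluster 10.

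In Tom+ mesothelial cells the Igfbp3 UMIs sat with the reporter, though only 28 of the 247 thinned cells held any. The level was 5.19 CPM (0.628 to 18.7; 2 UMIs) in the 51 cells without a tdTomato UMI, 37.4 CPM (20.9 to 61.7; 15 UMIs) in 53 cells with 1 to 4, and 50.9 CPM (38.3 to 66.2; 55 UMIs) in 143 cells with 5 or more, against 13.7 CPM (11.7 to 16.0) in Tom- cells at 0. Igfbp5 showed no such order, at 3166, 2492 and 2644 CPM against 1853 CPM in Tom- cells.

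**Figure D4:**
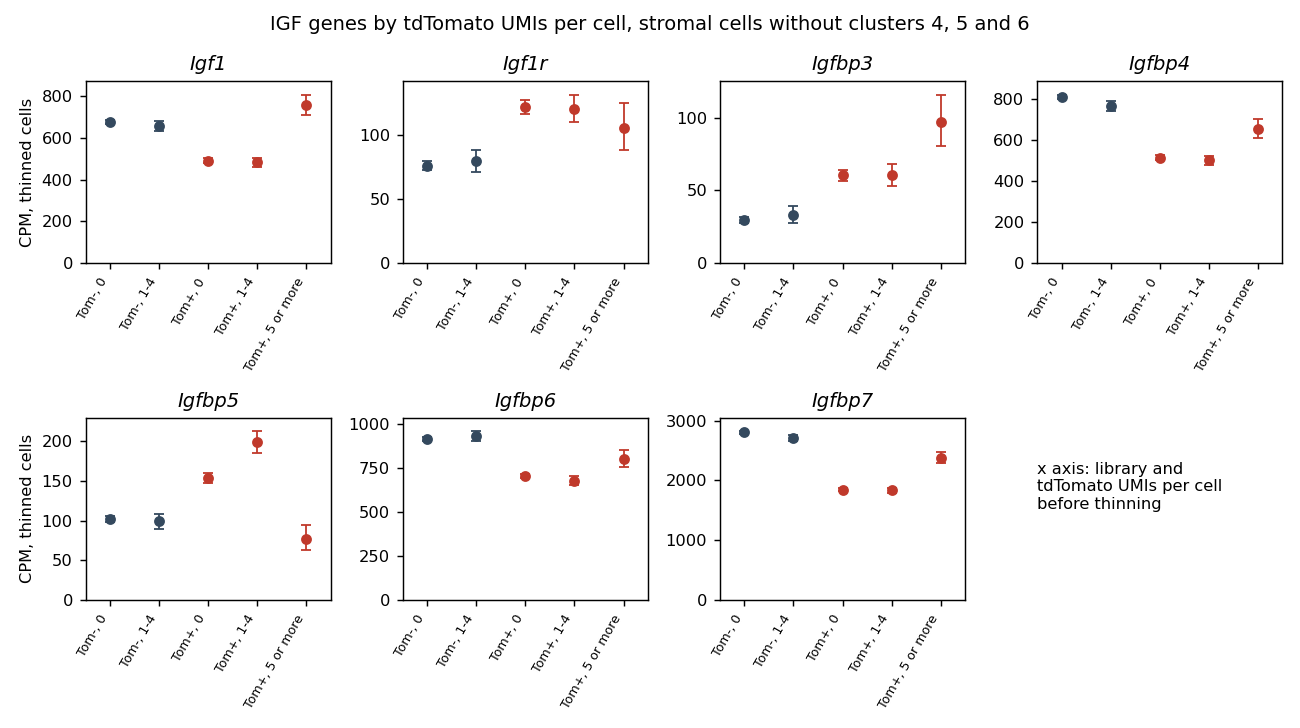
Level of 7 genes (CPM after thinning, linear axes from 0) by library and number of tdTomato UMIs in a cell, for stromal cells outside clusters 4, 5 and 6; points are summed levels and bars are exact 95% Poisson intervals for counting error. In Tom+ cells with 5 or more tdTomato UMIs, Igfbp5 is at its lowest (76.9 CPM) and Igfbp3 and Igf1 are at their highest (97.0 and 757 CPM). These groups of cells differ in cluster makeup.

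Within cells, the members rarely went together in a marked way. In thinned mesothelial cells, Igfbp5 and Igfbp6 had a Spearman correlation of 0.32 in each library. In stromal cells, Igf1 went against Igfbp6 (-0.25 in Tom+ and -0.29 in Tom-) and with Igfbp7 (0.25 and 0.24). These are descriptions over cells of the same library. An Igf1 UMI was found in 51.9% (48.2 to 55.6) of Tom+ stromal cells with Igfbp5 and in 60.2% (58.2 to 62.2) of those without, and in 52.8% (48.8 to 56.7) and 71.8% (70.3 to 73.3) in Tom-. Of mesothelial cells with an Igfbp2 UMI, 81.7% in both libraries also held Igfbp5, against 91.98% and 87.0% of those without.

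The rest of the pathway was described from 6 lists with 58 genes. Between Tom+ and Tom- stromal cells, 3.86% of all genes were past 1.5-fold higher and 3.25% lower. Of the 2 other receptors and binding proteins compared, 0 were past it. Of 6 genes listed as proteases of binding proteins or their inhibitors, 0 were higher and 1 lower. Receptor signalling had 1 higher and 0 lower of 19 genes, and the growth hormone axis 0 of 5. The Igf2 locus and RNA binding had 0 higher and 1 lower of 2 genes. Relatives with an IGFBP domain had 0 higher and 3 lower of 7. Irs1, the adaptor that couples the receptor to PI3K, was 32.5 CPM in Tom+ and 18.4 CPM in Tom- (log2 ratio 0.82). The relatives Nov (21.6 against 34.5 CPM, -0.67) and Wisp2 (22.9 against 59.8 CPM, -1.38), both of the CCN family of matricellular proteins, were lower. In mesothelial cells, beside 1.87% higher and 1.16% lower over all genes, 1 relative of 6 was higher in Tom+ and no gene of the other 5 lists crossed the cut.

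Between the classes the shares over all genes were 21.0% higher and 13.9% lower in Tom- and 22.6% and 16.2% in Tom+. In Tom-, 0 genes were higher and 1 lower in mesothelial cells of 2 other receptors and binding proteins, 0 and 3 of 6 proteases and inhibitors, 2 and 4 of 20 signalling genes, 1 and 1 of 6 growth hormone genes, 1 and 0 of 2 in the Igf2 list, and 1 and 3 of 7 relatives. In Tom+ these counts were 0 and 1 of 2, 0 and 2 of 5, 2 and 3 of 20, 1 and 1 of 6, 1 and 0 of 2, and 2 and 3 of 7. By level, in Tom- mesothelial cells were lower for the protease Htra3 (58.9 against 506 CPM, log2 ratio -3.10) and the receptor adaptor Irs2 (70.8 against 348 CPM, -2.30). The scavenging receptor Igf2r was also lower (34.3 against 59.5 CPM, -0.79). The adaptor Shc1 (-0.67) and the CCN protein Wisp2 (-2.97) were lower too. Crim1, a membrane protein with an IGFBP domain, was higher (250 against 17.7 CPM, 3.82). In Tom+ the ratio was -3.07 for Htra3, -2.21 for Irs2, -1.55 for Irs1, -0.74 for Shc1, -1.42 for Igf2r, -1.39 for Stat5b, which relays growth hormone signals, and 4.43 for Crim1, and the protease Adam12 was 1.32 CPM in mesothelial and 46.3 CPM in stromal cells (-5.14).

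The genes whose levels over the 16 pairs of stromal cluster and library most resembled those of each member were sought among 5747 genes. For Igfbp5 they were Cdc42bpb, Nhsl1 and Setd7 (Spearman 0.96 each), for Igf1 Fndc5 (0.88), Mylk (0.84) and Agt (0.82), and for Igfbp3 Insr, the insulin receptor (0.89), Fads6 (0.88) and Hnrnpll (0.86). For Igf1r they were Add1 and Taok1 (0.97 each) and Trove2 (0.96), for Igfbp4 Ifitm3 (0.96), C1ra and 1810037I17Rik (0.94 each), for Igfbp6 Procr (0.93), C1s1 and Ang (0.92 each), and for Igfbp7 Saraf (0.95), Hgsnat and Rasl11a (0.93 each). Among the members themselves, Igfbp4 and Igfbp6 (0.84) and Igf1r and Igfbp5 (0.83) were the most alike, and Igf1 and Igfbp5 stood at -0.32. The pairs share libraries and depth, so these values describe likeness and nothing more.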

How the data were processed

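The libraries were made with the 10x Genomics 3′ kit, version 3.1, and processed by the authors with Cell Ranger 3.0.2 against mm10, per the labels and the study's methods. Each library was deposited as 1 matrix of UMI counts, not normalized, in which tdTomato is a feature of its own; 30934 of the 31054 gene IDs matched GENCODE M21.

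Barcodes with over 1000 and under 7000 genes and under 8% mitochondrial UMIs were kept. Counts were summed per class and scaled to CPM. Stromal cells were clustered on 2000 variable genes, the IGF genes left out, with 30 principal components, 20 neighbours and Leiden resolution 0.4. Detection shares were taken after drawing 7563 UMIs from every cell, and 271 Tom+ and 647 Tom- stromal and 3 and 99 mesothelial cells were left out as shallower. No doublet caller was run; mesothelial cells with 10 or more UMIs of 4 stromal genes were left out as an alternative. Genes were compared where the 2 levels averaged 5 CPM or more, and a 1.5-fold difference was the cut. Intervals are exact Poisson for levels and Clopper-Pearson for shares and ratios, at 95%; free RNA, sorting and animals add error that they do not cover. The depth was 51104409 and 57883866 UMIs in stromal and 5322983 and 32355904 in mesothelial cells of Tom+ and Tom-.

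All 9 members are named. Of the other pathway genes, those past the cut with a mean of at least 20 CPM are named, at most 4 per list and comparison, apart from 1 that is not reported here. Likeness was ranked by Spearman correlation over clusters of at least 30 cells. The members and lists were chosen with earlier results of these data known. The scripts were tested on simulated data, under Python 3.11.15 with scipy 1.17.1, scikit-learn 1.9.0 and leidenalg 0.10.2.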

Additional observations from a re-analysis of the deposited data

Results flagged for a closer look

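For 3 genes the ratio of Tom+ over Tom- had opposite signs in stromal and mesothelial cells, and this difference was not tested, since each library is a single one. Igf1r was 0.51 (log2) in stromal and -0.024 in mesothelial cells, Igfbp4 was -0.70 and 0.059, and Igfbp6 was -0.49 and 0.028. In all 3 the mesothelial value was under 0.06 in size, and that of Igfbp6 was -0.0042 under median-of-ratios scaling, -0.024 with cells thinned to 1 depth and -0.050 without shared barcodes.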

How the results depend on the processing

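Over 15 settings, 415 member ratios were recomputed. Of these, 240 stayed within the counting-error interval of the reported ratio and 174 left it. The remaining ratio, for Igfbp3, left it and reversed, as described below. The sign was kept by 397 of the 415, and 17 of the 18 that did not keep it were under 1.5-fold as reported. The other was Igfbp3 in mesothelial cells, at -0.91 (log2) with Tom+ cells of 0 tdTomato UMIs in place of 0.99. That ratio was taken before thinning, and after thinning these Tom+ cells held 2 Igfbp3 UMIs. The count higher in Tom+ stromal cells, 1 as reported, was 3 with cells thinned (Igf1r, Igfbp3 and Igfbp5) and 2 with each cell weighted equally, without shared barcodes, without clusters 4, 5 and 6, and with Tom+ cells of 0 tdTomato UMIs. The count lower there, 2 as reported, was 1 without shared barcodes, without clusters 4, 5 and 6 and with Tom+ cells of 0 tdTomato UMIs, and 0 with clusters weighted equally and with Tom+ cells of 5 or more tdTomato UMIs. In mesothelial cells with under 10 UMIs of 4 stromal genes, 10 in Tom+ and 197 in Tom-, 0 members were higher and 1 lower (Igf1r, -0.61), and with Tom+ cells of 0 tdTomato UMIs 1 was lower (Igfbp3). No interval was made for ratios under these settings. The number spanning 4-fold over clusters, 6 as reported, was 2 without clusters 4, 5 and 6. The cause of these shifts was not tested. The other 100 counts stayed within 1.5 times. Settings on the reporter, on clusters 4, 5 and 6 and on which copy of a shared barcode to keep were added after seeing the data. No paired analysis was possible because each sorted group has 1 library, and for the same reason none could be left out.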
